A study of Mus musculus with 16 samples.

Results

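The immediate early genes of the Egr, Nr4a and Ier families, with the Polo-like kinase gene Plk2, were followed in mouse macrophage-like cells given cordycepin and lipopolysaccharide (LPS). The members were Egr1, Egr2, Egr3, Nr4a1, Nr4a2, Nr4a3, Ier2, Ier3, Ier5 and Plk2, and every non-control probe that the array files label with one of these symbols was taken. This gave 10 genes and 12 probes, of 34779 genes and 55681 probes on the array. Ier5 and Nr4a2 had 2 probes each. The cells were RAW 264.7, an established mouse line that grows like macrophages. Wells were held in low serum for a day and then received either DMSO, the vehicle, or 20 µM cordycepin in the same volume of DMSO, so all cells had DMSO. After 60 min LPS was added at 1 µg/ml to one well of each kind and all wells were harvested 60 min later. The 4 conditions are called DMSO, cordycepin, LPS+DMSO and LPS+cordycepin, with drug or vehicle present for 120 min in each. Each condition had 4 arrays from cultures of 4 different days, 16 in all, and a replicate number stands for a day.

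Immediate early genes are transcribed within minutes of a stimulus from factors that are already present in the cell, and their mRNAs are mostly short-lived. Egr proteins are zinc finger transcription factors that bind GC-rich sites, and Nr4a proteins are orphan nuclear receptors whose activity is set largely by their amount. Ier2 and Ier5 belong to one protein family, Ier3 is unrelated to them and shares only the name, and Plk2 is a serine/threonine kinase of the Polo-like family. In macrophages LPS acts through Toll-like receptor 4, which engages MAP kinases and NF-kB, and Egr1, Nr4a1 and Ier3 are textbook responders to these pathways. Cordycepin is 3′-deoxyadenosine, an adenosine analogue that can end a growing poly(A) tail because it lacks the hydroxyl group needed for the next base.

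The upstream sequences of 4 members are shown because these genes carry the results below. Nr4a1 and Ier3 rose with LPS by over 4 log2 units, and Nr4a2 and Plk2 were the members called with cordycepin at the brightest probe of each gene. Each line gives the 250 bases before the RefSeq start site on GRCm38.p6, 5′ to 3′ along the gene. Capitals mark every match, on either strand, to the cyclic AMP response element TGACGTCA, its part TGACG (which lies within the former), the Egr site GCGGGGGCG, the serum response CArG box, the NF-kB consensus, or the letters GGAATTTCC, which were chosen after the Ier3 sequence was seen.
Nr4a1 (chr15:101266596-101266845, plus strand): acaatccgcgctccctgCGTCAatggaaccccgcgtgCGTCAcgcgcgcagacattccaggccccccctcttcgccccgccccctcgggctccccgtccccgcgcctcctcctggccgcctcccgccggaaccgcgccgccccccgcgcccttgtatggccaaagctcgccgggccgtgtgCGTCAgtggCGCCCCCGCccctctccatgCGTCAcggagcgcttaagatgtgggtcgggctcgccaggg
Nr4a2 (chr2:57124004-57124253, minus strand): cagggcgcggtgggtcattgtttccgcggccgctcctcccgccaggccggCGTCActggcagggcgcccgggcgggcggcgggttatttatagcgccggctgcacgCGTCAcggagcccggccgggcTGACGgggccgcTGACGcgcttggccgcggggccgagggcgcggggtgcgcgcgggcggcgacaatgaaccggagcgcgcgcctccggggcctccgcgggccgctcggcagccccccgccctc
Ier3 (chr17:35821463-35821712, plus strand): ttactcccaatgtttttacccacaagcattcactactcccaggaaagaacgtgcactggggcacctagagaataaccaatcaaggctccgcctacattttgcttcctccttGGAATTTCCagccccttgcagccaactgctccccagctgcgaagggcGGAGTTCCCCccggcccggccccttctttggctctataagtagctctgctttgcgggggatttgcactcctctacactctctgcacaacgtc
Plk2 (chr13:110394794-110395043, plus strand): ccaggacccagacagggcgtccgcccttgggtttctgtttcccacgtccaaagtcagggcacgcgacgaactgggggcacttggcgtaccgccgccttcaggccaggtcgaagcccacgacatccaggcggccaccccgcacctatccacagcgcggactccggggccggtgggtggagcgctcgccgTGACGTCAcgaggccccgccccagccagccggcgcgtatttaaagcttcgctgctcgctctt

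The full element TGACGTCA lies in the Plk2 window, and in 1.55% of all 32851 windows of this length. The part TGACG occurs 4 times in the Nr4a1 window, 4 times in that of Nr4a2 and 4 times in that of Nr4a3, while 17.8% of all windows hold at least 1 and 0.137% hold 4 or more. The Nr4a1 window also holds the Egr site, found in 2.57% of windows. Ier3 has 1 match to the NF-kB consensus, which 7.25% of windows hold, and the letters GGAATTTCC, which 0.286% hold. Egr2 has 5 start sites in RefSeq. A CArG box was present upstream of 4 of them, against 1.47% of all windows. However, 3 of those 4 windows overlap and hold the same box (at -72, -73 and -133 from their starts), so the 4 are not separate finds. TGACG occurs 2 times in each of these 3 windows, again as the same 2 sites. The window with no CArG box has 2 overlapping matches to the NF-kB consensus. The Ier5 window held none of these letters. These are matches of letters and say nothing about binding.

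Between 21999 and 30362 of the 59305 spots of an array were well above background, with fewer on the slide that held replicates 1 and 2 (at most 26055) than on the slide that held replicates 3 and 4 (at least 27151) in every condition alike. No spot was saturated. Values are log2 of the background-subtracted signal, each array set to the same 75th percentile over its bright probes, and levels are not compared between probes. A gene was called changed at an adjusted p under 0.05 in limma, over 15877 genes tested, together with at least a 2-fold difference. The 11 macrophage markers (among them Lyz2 and Csf1r) were well above background on all arrays. Of the markers of other cells, Cd3e (T cell) and Kdr (endothelial) were well above background on all 16 arrays. The summed signal of the T cell list was 386 to 1210 in LPS+cordycepin and at most 563 in the other conditions. The B cell list moved with a condition. Its summed signal was 381 to 1170 in LPS+cordycepin and 78.2 to 163 in the other conditions, through Cd79a and Cd79b, while Ms4a1 was well above background on no array. The part of these markers in the results below was not tested. In cultures measured in bulk, fewer responding cells and less RNA per cell cannot be told apart.

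LPS raised 7 of the 8 members that could be tested, by 3.36-fold to 32.6-fold as fitted, and the eighth, Nr4a2, was higher at its brighter probe by less than the fold required. Over all genes 2.09% were called higher. The median log2 change of these 8 was 3.89 and that of all genes tested was -0.04. Egr1 was kept by the filter on dim probes only because of its level with LPS, so that its place in this count and median was favoured by the filter. The other 7 were well above background on all 16 arrays. Egr3 and Nr4a3 did not pass and were not tested.

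Egr1, the best known zinc finger factor of its family, was not well above background on any array without LPS and was so on all 8 arrays with it. Its log2 signal read 4.06, 4.08, 4.67 and 4.25 in DMSO and 9.40, 9.13, 8.90 and 8.93 in LPS+DMSO. Since the lower group was not well above background, the size of the rise was not measured (limma, adjusted p = 3.02e-09, for a gene that the filter kept for being high with LPS). Set against the dimmest probes well above background on the DMSO arrays, Egr1 was 15.7-fold higher with LPS on this signal scale. That value is no strict bound, since Egr3 was not well above background at 6.21 in DMSO replicate 1. With normexp background correction and its offset of 50 the fitted change was 2.36 on the log2 scale in place of 4.82, below that 15.7-fold value as well. Egr2, a related factor of myeloid and Schwann cells, had 8.97, 7.47, 9.46 and 8.73 in DMSO and 12.90, 13.17, 13.03 and 12.79 in LPS+DMSO. The unstimulated arrays spread widely, with replicate 2 low, and yet lay far below the stimulated ones. Egr2 thus rose by 4.31 ± 0.29 on the log2 scale (SE, n = 4 per group; limma, adjusted p = 5.49e-08). Egr3 was dim throughout. With LPS+DMSO it cleared background on 3 of 4 arrays (6.40, 6.87 and 5.48, the fourth at 4.04), with LPS+cordycepin on 1 of 4 (5.99), and without LPS on none.

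Nr4a1, an orphan receptor induced in macrophages and T cells, had log2 signals of 8.86, 8.29, 8.88 and 8.60 in DMSO and of 12.86, 13.48, 13.55 and 13.46 in LPS+DMSO. It rose 25.6-fold with LPS (log2 change 4.68 ± 0.17, SE, n = 4; limma, adjusted p = 3.76e-11). Nr4a2, its close relative, had 7.15, 7.31, 6.87 and 7.11 in DMSO and 7.67, 7.86, 8.05 and 8.32 in LPS+DMSO, so the groups did not overlap but lay only 0.86 ± 0.15 apart (1.82-fold; limma, adjusted p = 0.000617). The difference was positive on all 4 days, from 0.52 to 1.21. Nr4a3 was well above background on no array of any condition, although its probe is spotted 10 times per array. For this gene the arrays give no level and no difference.

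Among the Ier genes, Ier3, an early gene linked to cell survival, went from 10.33, 10.89, 9.94 and 10.14 in DMSO to 15.43, 15.33, 15.28 and 15.38 in LPS+DMSO. The 4 stimulated arrays lay close together and far above the others. Ier3 rose 32.6-fold (log2 change 5.02 ± 0.17; limma, adjusted p = 1.88e-11). Ier2, a small nuclear protein, had 7.88, 7.83, 7.88 and 8.52 in DMSO and 11.80, 11.70, 11.33 and 11.16 in LPS+DMSO, and rose 11.1-fold (limma, adjusted p = 3.71e-08). Ier5, a nuclear partner of heat shock factor signalling, rose less, from a mean of 10.24 ± 0.10 (SD, n = 4) to 11.99 ± 0.11 at its brighter probe, or 3.36-fold (limma, adjusted p = 2.26e-07). Plk2, a kinase of centriole duplication and stress responses, had 10.40, 10.20, 9.87 and 9.78 in DMSO and 13.13, 13.29, 12.91 and 13.24 in LPS+DMSO, and rose 8.45-fold (limma, adjusted p = 7.58e-08).

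**Figure D1:**
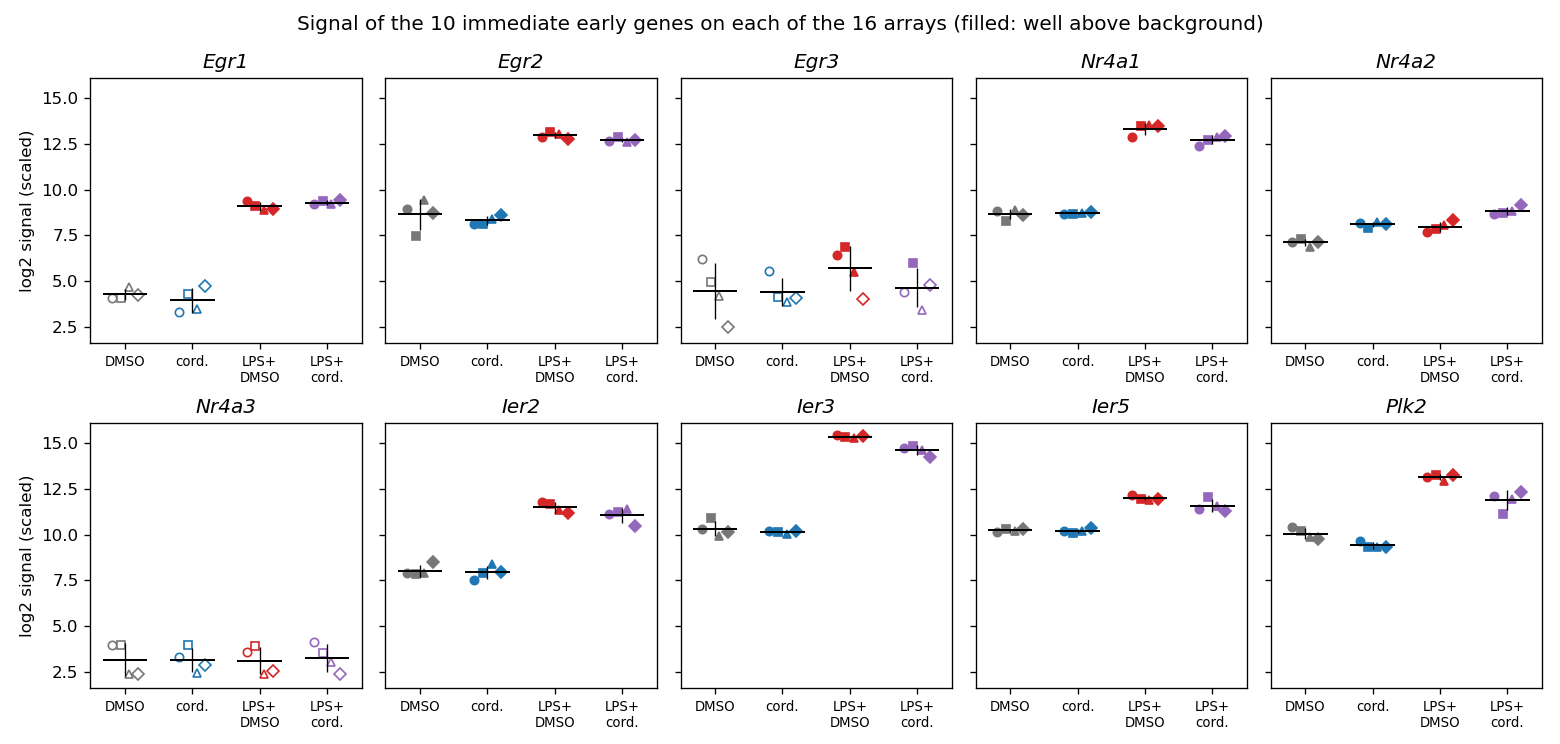
Log2 signal (vertical axis, scaled between arrays) of each member in the 4 conditions, 1 mark per array with the shape giving the culture day (circle, square, triangle and diamond for replicates 1 to 4), filled where well above background. Horizontal lines are means and vertical lines are SDs of 4 arrays. Egr1, Egr2, Nr4a1, Ier2, Ier3, Ier5 and Plk2 stand higher with LPS with no overlap, Nr4a2 moves with both agents, and Nr4a3 is dim on all arrays.

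In cells that had cordycepin from 60 min before LPS, the same 7 members were called higher with LPS, against 1.69% of all genes, and their median with Nr4a2 included was 3.58. Egr1 read 3.30, 4.30, 3.46 and 4.75 in cordycepin, none well above background, and 9.19, 9.37, 9.19 and 9.43 in LPS+cordycepin (limma, adjusted p = 1.51e-09, with the same filter). Set against the dimmest probes well above background on the cordycepin arrays, Egr1 was 18.2-fold higher with LPS, which again is no strict bound. With normexp the fitted change was 2.65 in place of 5.34. Egr2 rose by 4.40 ± 0.29 and Nr4a1 by 4.03 ± 0.17 on the log2 scale. Ier3 rose by 4.48 ± 0.17, Ier2 by 3.12 ± 0.23 and Plk2 by 2.48 ± 0.22. Ier5 rose by 1.37 ± 0.14, and scaled to the spiked-in control RNAs instead its difference was 1.06 and not called (limma, adjusted p = 0.169). Under that scaling the median of all genes in this comparison was -0.36 in place of -0.05, and 40.9% in place of 58% of the calls were higher. Nr4a2 was 0.73 ± 0.15 higher with LPS here, again short of 2-fold (limma, adjusted p = 0.00407).

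Whether the LPS response itself differed with cordycepin was tested as the interaction, the LPS change in cordycepin less that in DMSO. None of the 8 members was called by limma, against 0.365% of all genes. At an unadjusted p under 0.05 there were 2 of the 8, beside 1216 of all 15877 genes, namely Nr4a1 with -0.65 and Ier3 with -0.55. Their intervals were -1.16 to -0.14 (limma, adjusted p = 0.393) and -1.06 to -0.04 (adjusted p = 0.597). The Nr4a1 value was negative on 4 of 4 days, and that of Ier3 on 3 of 4. Plk2 gave -0.60 with an interval from -1.25 to 0.05. For Egr2 the interval ran from -0.80 to 0.97. Egr1 was not well above background in either condition without LPS, so that the sizes of its LPS changes and their difference were not measured. Under spike-in scaling the all-gene median of the interaction was -0.21 in place of 0. Only 12 genes were then called (75% of them higher), in place of 58 (53.4% higher).

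**Figure D2:**
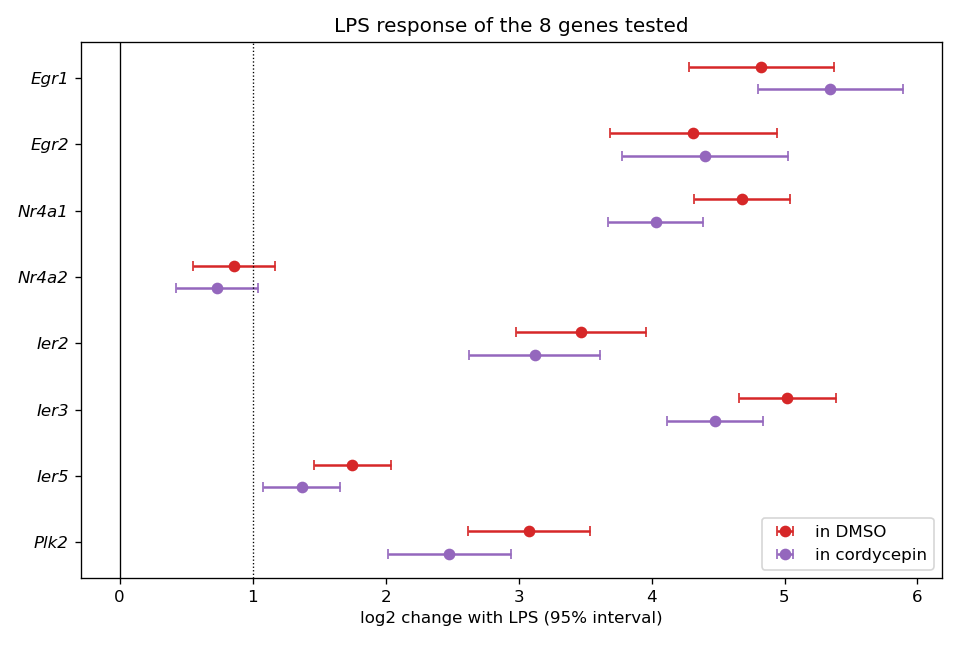
Fitted log2 change with LPS (horizontal axis) of the 8 members tested, in DMSO (red) and in cordycepin (purple), with 95% intervals from limma and a dotted line at 2-fold. All but Nr4a2 lie beyond 1 in both, and the intervals of each gene overlap. Egr1 was not well above background without LPS, so the size of its change was not measured.

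Without LPS, cordycepin for 120 min changed 1 of the 8 members, each tested at its brightest probe. Over all genes 5.55% were called and 4.49% were called higher. Ier5 differed by -0.02 at its brighter probe, while its other probe, given below, was called higher by 1.64 (where 6.64% of probes were called). The median of the 8 was -0.14 and that of all genes 0.04, and the 8 include Egr1, whose difference here was not measured. The 1 member counted was Nr4a2, which read 8.18, 7.92, 8.24 and 8.13 in cordycepin against 7.15, 7.31, 6.87 and 7.11 in DMSO. No array of one group reached the other. Nr4a2 rose 2.01-fold (log2 change 1.01 ± 0.15; limma, adjusted p = 0.000125), on 4 of 4 days by 0.61 to 1.37. It stands on the 2-fold line. Over the 37 alternative settings tried, the value was 0.65 to 1.29 and 9 lost the call, 8 of them through the fold alone with the adjusted p still under 0.05. In the order of its means, DMSO (7.11) was below LPS+DMSO (7.97) and cordycepin (8.12), which overlap, and LPS+cordycepin (8.85) stood above all others.

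Plk2 had 9.68, 9.32, 9.31 and 9.33 in cordycepin and 10.40, 10.20, 9.87 and 9.78 in DMSO. The groups did not overlap and the difference was negative on 4 of 4 days, but at -0.65 ± 0.22 it was not called (limma, adjusted p = 0.053, and 0.0476 with the culture day as a block). Nr4a1 (8.65, 8.69, 8.72 and 8.76 in cordycepin) differed from DMSO by 0.05 with an interval from -0.31 to 0.40, and the groups overlapped. Intervals of Ier2 (-0.58 to 0.39), Ier3 (-0.54 to 0.18) and Egr2 (-0.97 to 0.29) held 0 as well. Egr1 was not well above background on either side.

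With LPS present, cordycepin gave 1 call among the 8 at the brightest probe of each gene, Plk2, which was lower. Over all genes 7.46% were called, 5.93% higher and 1.52% lower. The median of the 8 was -0.42, with 6 below 0, and that of all genes was 0.03. Those 6 include Ier5 at its brighter probe, while its other probe, given below, was called higher by 2.25 (where 8.72% of probes were called). Plk2 read 12.12, 11.12, 11.97 and 12.34 in LPS+cordycepin, all below the lowest LPS+DMSO array at 12.91. It fell 2.38-fold (log2 change -1.25 ± 0.22; limma, adjusted p = 0.000473), on the 4 days by -1, -2.17, -0.94 and -0.90. Replicate 2 was thus lowest. Without that day the value was -0.95 (adjusted p = 0.003), and without that 1 array it was -1, so that the gene then fell just short of 2-fold in both cases.

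With Plk2 included, 4 of the 8 members passed the adjusted p, where 19.2% of all genes passed it. The 3 besides Plk2 did not pass the fold. Ier3 read 14.76, 14.85, 14.66 and 14.24 in LPS+cordycepin, below all 4 LPS+DMSO arrays (15.28 to 15.43), a difference of -0.72 ± 0.17 (1.65-fold lower; limma, adjusted p = 0.00573). Nr4a1 read 12.37, 12.74, 12.87 and 12.95 against 12.86 to 13.55, so that groups overlapped while the difference was negative on 4 of 4 days (-0.60 ± 0.17; limma, adjusted p = 0.0179). Nr4a2 was higher, with 8.66, 8.72, 8.86 and 9.15 against 7.67 to 8.32. It differed by 0.87 ± 0.15 (limma, adjusted p = 0.000346), and by between 0.82 and 0.99 on each of the days.

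For Egr1 and Egr2 the groups overlapped. Egr1 differed by 0.21 with an interval from -0.34 to 0.76, and Egr2, at 12.68, 12.88, 12.60 and 12.73 in LPS+cordycepin, by -0.25 with an interval from -0.88 to 0.38. Neither interval reaches a 2-fold difference. Ier2 was at 11.11, 11.24, 11.39 and 10.47 in LPS+cordycepin and overlapped with LPS+DMSO (-0.44, interval -0.93 to 0.04). For Ier5 the brighter probe gave -0.40 (limma, adjusted p = 0.0522), with 3 of 4 days negative.

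**Figure D3:**
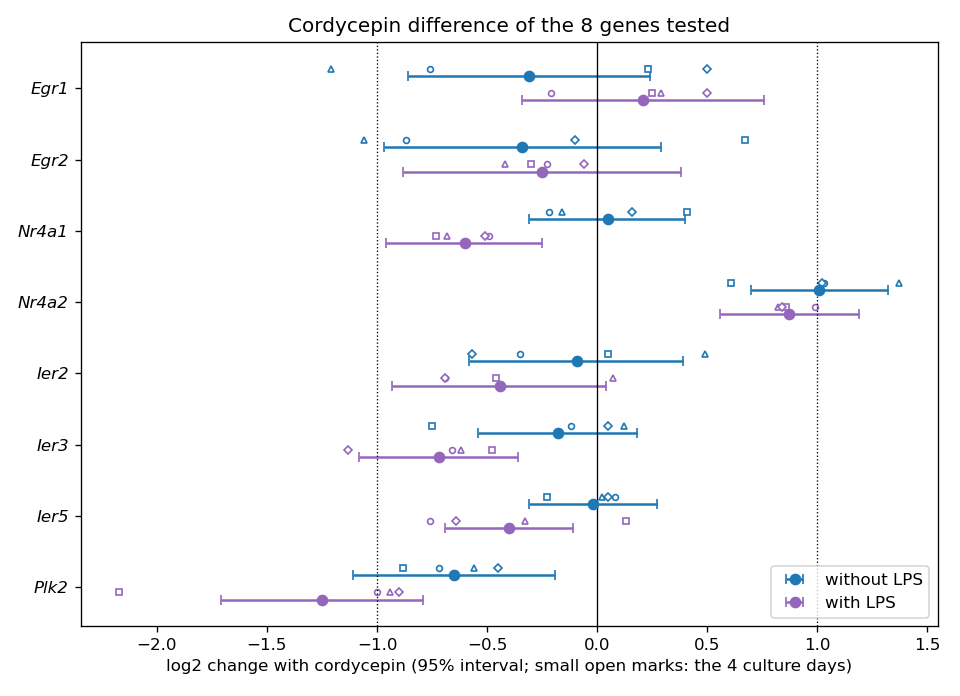
Log2 difference with cordycepin (horizontal axis) of the 8 members tested, each at its brightest probe, without LPS (blue) and with LPS (purple). Bars are 95% intervals from limma and dotted lines are at 2-fold. Small open marks are the differences on the 4 culture days. Nr4a2 lies to the right in both, Plk2 to the left in both with 1 day at -2.17, and Egr1 and Egr2 span 0. Without LPS Egr1 was not well above background on either side, so its blue mark is no measured difference.

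The 2 probes of Ier5 gave different answers on cordycepin. Both carry the same RefSeq accession and lie 2235 bases apart on the minus strand of chromosome 1, on mm9. Along that strand one lies upstream (5′) and the other downstream (3′). The 5′ probe is the brighter one used above. No exon annotation of this build was used here, so whether each probe lies within the mRNA was not checked. The first 30 of the 60 bases of each probe are shown, with those of Nr4a2, because the comparison rests on where each probe lies.
Ier5 5′ probe (chr1:156945765-156945824, minus strand): acgtggcaaacctcatcagcatcttcgggt
Ier5 3′ probe (chr1:156943530-156943589, minus strand): gcaagggagctgttacttttctactccatc
Nr4a2 5′ probe (chr2:56960699-56960758, minus strand): aaagaccatgtgactttcaataatgggggt
Nr4a2 3′ probe (chr2:56959637-56959696, minus strand): aagggacacatagtgtttgtaacaccgccc

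The 5′ Ier5 probe had 10.12, 10.32, 10.20 and 10.31 in DMSO and 10.20, 10.09, 10.21 and 10.36 in cordycepin, with full overlap. The 3′ probe had 8.47, 8.36, 8.56 and 8.47 in DMSO and 10.17, 10.13, 9.94 and 10.20 in cordycepin, with every treated array far above. It rose by 1.64 ± 0.09 (limma over 21597 probes, adjusted p = 5.13e-09), where 6.64% of probes were called. With LPS the 3′ probe had 9.29, 9.36, 9.22 and 9.36 in LPS+DMSO and 11.65, 11.47, 11.47 and 11.66 in LPS+cordycepin. It rose by 2.25 ± 0.09 with cordycepin there (adjusted p = 1.92e-10, with 8.72% of probes called), while the 5′ probe differed by -0.40. The 3′ signal with LPS alone was 0.84 ± 0.09 above DMSO, short of 2-fold, whereas with cordycepin LPS added 1.45 ± 0.09. The interaction at this probe was 0.61 ± 0.12 (limma, adjusted p = 0.0373), short of 2-fold and so not called, where 0.343% of probes were.

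The ratio of the 3′ to the 5′ signal on the same array does not change when an array is shifted as a whole, as in the scaling used here. Quantile normalization and other background correction can change it and were not tried for it. Its log2 mean was -1.77 ± 0.16 in DMSO (SD, n = 4) and -2.68 ± 0.13 in LPS+DMSO. The cordycepin arrays gave -0.10 ± 0.14, and those of LPS+cordycepin gave -0.03 ± 0.43. Fitted by limma over the 3758 genes with a pair of probes more than 60 bases apart, the Ier5 ratio was 1.67 ± 0.17 higher with cordycepin alone (adjusted p = 5.93e-06, 4 of 4 days from 1.36 to 2.00). It was 2.65 ± 0.17 higher with cordycepin under LPS (adjusted p = 4.78e-08, 4 of 4 days from 1.98 to 3.12). Over these genes 5.56% were called in the first comparison and 7.37% in the second, most of them higher. LPS alone gave -0.90 ± 0.17 (adjusted p = 0.00761), which is under 2-fold. The interaction of the ratio was 0.99 ± 0.24 and did not pass (limma, adjusted p = 0.264), with 3 of 4 days positive and replicate 2 at -0.03. This fit was added after the values of both probes had been seen.

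For Nr4a2, with probes 1062 bases apart on chromosome 2, the 3′ probe passed the filter on dim probes only through the 2 conditions with cordycepin. It had 4.10, 5.47, 4.49 and 5.31 in DMSO, where 1 of 4 arrays was well above background, and 5.98, 6.44, 6.59 and 6.59 in cordycepin, where all were. The groups did not overlap, but since the other 3 DMSO arrays were not well above background the size of the difference was not measured, and the ratio of the probes is not given. In LPS+DMSO the probe had 4.95 to 6.90, with 3 of 4 arrays well above background. These overlapped with DMSO, and with the same limit in DMSO the size of this difference was not measured either. The fit gave 1.13 ± 0.36 and a call (limma, adjusted p = 0.0475, where 2.15% of probes were called higher). The 5′ probe at 0.86 was not called, and the 2 values are not set against each other. With LPS present the fit for cordycepin at the 3′ probe gave 0.95 ± 0.36 (limma, adjusted p = 0.0827). Replicate 1 of LPS+DMSO, at 4.95, was not well above background, so the size of this difference was not measured.

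**Figure D4:**
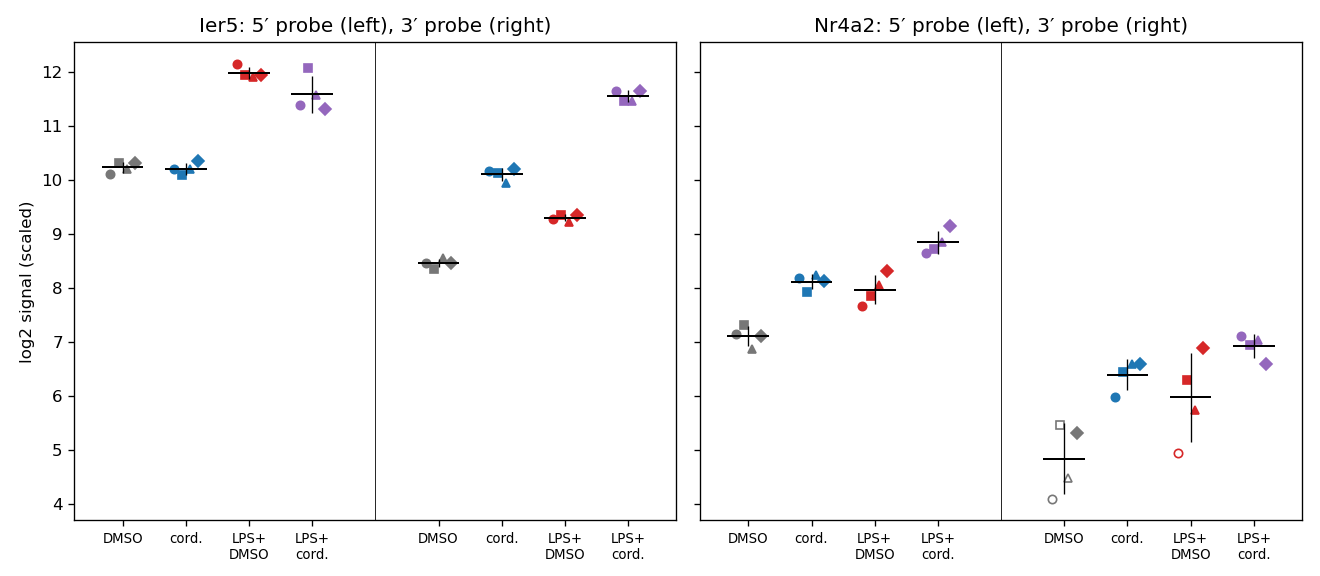
Log2 signal (vertical axis) at the 5′ and 3′ probes of Ier5 (left panel) and Nr4a2 (right panel) in the 4 conditions, 1 mark per array with shapes by culture day, filled where well above background, and lines for mean and SD. At the 3′ probe of Ier5 both cordycepin conditions stand above their vehicle conditions, with means of 10.11 against 8.47 and of 11.56 against 9.31, while at the 5′ probe they overlap. Heights of different probes are not comparable.

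Other genes of the same programme give the frame for these values. Of 39 other immediate early genes tested, LPS raised 26 and lowered 1 (Dusp6), with a median of 1.79, where 2.09% of all genes were called higher. The filter keeps a gene that is bright in 1 condition, so a gene high only with LPS can enter this list. Zfp36, whose protein destabilises AU-rich mRNAs, rose by 5.85, and Maff by 4.84. Fos and Junb, subunits of AP-1, rose by 4.67 and 4.66. In cordycepin 24 rose and 1 fell with LPS, with a median of 1.38, where 1.69% of all genes were called higher. The 4 genes named above rose by 5.76 (Zfp36), 4.40 (Maff), 4.53 (Fos) and 4.09 (Junb). With cordycepin under LPS 7 of the 39 fell and none was called higher, with a median of -0.61, against -0.42 for the members. Over all genes 1.52% were called lower there and 5.93% higher. Atf3, a stress-induced factor, fell by 2.01 and the growth regulator Myc fell by 1.92. The MAP kinase phosphatase Dusp5 fell by 1.76, and Rgs1, a regulator of G-protein signalling, fell by 1.68. Fos differed by -0.19 ± 0.14 there (limma, adjusted p = 0.453). Without LPS 1 of the 39, Klf2, fell by 1.21 with cordycepin, where 5.55% of all genes were called either way. In the interaction 1 of the 39, Atf3, was called with -1.02 (limma, adjusted p = 0.048), where 0.365% of all genes were called. With the culture day as a block Trib1, a pseudokinase, was called as well, at -1.38 (limma without the block, adjusted p = 0.0608).

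Of 22 genes of the MAP kinase, SRF and CREB pathway, the kinases and factors that act upstream, LPS raised 1, Srf, the serum response factor itself, by 1.05, where 2.09% of all genes were called higher. With cordycepin under LPS 1 of them, Creb1, fell by 1.18 (limma, adjusted p = 0.00102), where 1.52% of all genes were called lower. None was called by limma with cordycepin alone, where 6 of the 22 had an unadjusted p under 0.05, as did 4430 of all 15877 genes. No partner or repressor of the Egr and Nr4a proteins was called by limma among the 5 tested in any comparison (at most 1 had an unadjusted p under 0.05 in a comparison), Nab2 (a co-repressor of Egr1) being at 0.47 with LPS (adjusted p = 0.205). Among the 5 other Polo-like kinase and Ier-named genes tested, Plk3 rose with LPS by 2.39 and by 2.28 in cordycepin, whereas Plk1, the mitotic kinase, was at 0.02. Plk3 was 0.80 ± 0.13 lower with cordycepin at rest and 0.91 ± 0.13 lower with cordycepin under LPS, short of 2-fold in both (adjusted p = 0.000438 and 0.000102).

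Across the 16 arrays the 7 members other than Nr4a2 followed one another, with Pearson r between 0.91 and 0.99, while Nr4a2 had r between 0.37 and 0.59 with them. The arrays share 4 conditions and 4 days, so these values mostly describe the step with LPS. Egr1 was not well above background on any array without LPS, so its values rest on that step. Among all genes tested with a symbol, Fos (r = 0.987), Egr2 and Ccrl2 (both 0.982) were nearest to Egr1. Skil (0.998), Csrnp1 and Fos (both 0.993) were nearest to Nr4a1, and Cxcl10 (0.994) and Nfkbiz (0.993) were near to Ier3.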

How the data were processed

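RNA of 16 RAW 264.7 cultures was hybridised to Agilent 1-colour mouse arrays. Per the labels, the authors read the arrays with Agilent Feature Extraction 10.10.1.1, and the deposited scanner files give spot intensity, raw and background-subtracted, without normalization between arrays. The deposited value table holds log2 values, with centring and method not given in the sources used here. It was an alternative only. It correlated with the scanner values at 0.996 to 0.999 per array.

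Processed intensities were log2-transformed, outlier spots dropped, spots of a probe averaged, and each array aligned at the 75th percentile of the 18064 probes that no array left near background. A probe was kept if all 4 arrays of a condition had it well above background (21597), the brightest standing for its gene. limma 3.58.1 in R 4.3.3 fitted 4 condition means, and p was adjusted by Benjamini-Hochberg over 15877 genes. The fit was tested on simulated data. Plots used Python 3.11.15 and matplotlib 3.10.9. Intervals are 95%.

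Cultures of one replicate number share a day, as the design text states, so the numbers pair the samples. Residuals of same-numbered arrays correlated by 0.20 on average (-0.06 to 0.44), and those of arrays with another number on the same slide by 0.18, so these residuals do not tell day from slide. The main fit had no block. Probe positions are mm9. Upstream sequences are RefSeq's, on GRCm38.p6, in a table that held 7 of the 10 members. All 10 members were named, with up to 4 called genes of each other list per comparison and the 3 genes most correlated with Egr1, Nr4a1 and Ier3; some genes of these and of the marker lists are not reported here and were left out of the sums. The members and lists were chosen with earlier results of these data known.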

Additional observations from a re-analysis of the deposited data

Results flagged for a closer look

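Among 48 sets of 4 arrays (12 probes in 4 conditions), 5 held 1 array far from the other 3, where chance gives about 1 in 20. Egr3 in cordycepin had replicate 1 at 5.57, with the next array at 4.12, though no array of that condition was well above background. Nr4a1 in LPS+DMSO had replicate 1 at 12.86, below the next at 13.46. Ier2 in DMSO had replicate 4 at 8.52, above the next at 7.88. The 5′ Ier5 probe in LPS+DMSO had replicate 1 at 12.15, above the next at 11.95, and Plk2 in cordycepin had replicate 1 at 9.68, above the next at 9.33. Without that culture day or array the calls of Nr4a1, Ier2, Ier5 and Plk2 with LPS stayed. The interaction of LPS and cordycepin at the 3′ Ier5 probe passed the adjusted p but not the 2-fold minimum, at 0.61 (limma, adjusted p = 0.0373, where 0.343% of probes passed both).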

How the results depend on the processing

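With LPS, Egr2, Nr4a1, Ier2, Ier3, Ier5 and Plk2 were called in DMSO under every alternative, and in cordycepin with the exception of Ier5 under spike-in scaling, as given above. Egr1 was called wherever it was tested, and a filter that asks for signal well above background on all 16 arrays leaves it out. No member was called in the interaction under any alternative. Normexp background correction lowered the fitted Egr1 change with LPS from 4.82 to 2.36. The count for cordycepin alone, 1 (Nr4a2), was 0 with quantile normalization, the 75th percentile over all probes, spike-in scaling, normexp and the deposited value table, where Nr4a2 was at 0.88, 0.95, 1.07, 0.77 for the table and 0.65 for normexp. It was 2 by the methods' univariate test at its unadjusted threshold. Leaving out replicates gave 0 to 1, with 0 without replicate 3 (0.89), DMSO replicate 3 (0.93), cordycepin replicate 1 (0.99) or cordycepin replicate 3 (0.97). The count for cordycepin under LPS, 1, was 4 with no minimum fold and 5 by the unadjusted univariate test, and 0 to 1 when replicates were left out. With the replicate number as a block the counts were 7, 1, 1, 7 and 0, so this pairing changed no call.

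Values near 0 that were not called turned sign. With cordycepin alone these were Egr1 at 0.03 in the value table, Nr4a1 at -0.01 with quantile normalization, all probes, normexp and the value table, and Ier5 at 0.01 with quantile or median scaling and 0.04 with spike-in scaling. When replicates were left out the ranges there were -0.08 to 0.13 for Nr4a1, -0.29 to 0.07 for Ier2, -0.31 to 0.02 for Ier3 and -0.07 to 0.05 for Ier5. In the interaction Egr2 was at -0.13 with spike-in scaling and between -0.18 and 0.49 without replicates, and Nr4a2 at 0.03 with normexp and between -0.26 and 0.01. The mean of both Ier5 probes gave 0.81 with cordycepin alone (limma, adjusted p = 2.75e-06), 0.93 under LPS (adjusted p = 5.03e-07) and 0.12 in the interaction, as it includes the 3′ probe. For the 3′ Ier5 probe, 9 alternatives chosen after seeing the data gave 1.58 to 1.73 and 2.10 to 2.30, and for the ratio 5 gave 1.56 to 1.77 and 2.5 to 2.88, all called. Signal over background leaves the level of Egr1 without LPS unmeasured and Egr3 and Nr4a3 untested, and 4 arrays per condition limit the precision.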
